A study of Mus musculus with 9 samples.

Results

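Fibroblast growth factors (FGFs) are signalling proteins, and most are secreted, bind receptor tyrosine kinases together with heparan sulphate and switch on the RAS-ERK cascade. In the embryonic forebrain they pattern the early telencephalon and control how long cortical progenitors divide before they make neurons. A small branch of the family, the FGF homologous factors, stays inside the cell and binds voltage-gated sodium channels. The 10 genes described here are the ligands Fgf3, Fgf15, Fgf2, Fgf9, Fgf10 and Fgf18, the FGF homologous factor Fgf13 and the receptors Fgfr1, Fgfr2 and Fgfr3. They were picked by name from 39184 genes listed in both comparison tables, with their differences from control already known, Fgf3 and Fgf15 above all. Their log2 fold changes are therefore given as a description and support nothing by themselves. All 10 were found, and all 10 had passed the authors' filter on low counts in both comparisons.

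The libraries were made from mouse cortex at E16.5, a stage of late cortical neurogenesis, from 3 deletion embryos lacking HAR1984 on both alleles (del/del), 3 knock-in embryos with a human and a mouse allele (Hs/Mm), both made by CRISPR, and 3 control embryos with mouse alleles only (Mm/Mm). HAR1984 is a human accelerated region, a conserved stretch of DNA that changed quickly on the human lineage. The tissue of deletion replicate 3 is labelled E16.6, and neither strain nor founder lines are stated in the labels. All libraries have the same batch label. A knock-in embryo keeps 1 mouse allele, so the comparison is of a heterozygote. The labels call the cell type neural progenitors, but projection neuron markers (7 tested) had a median level of 2802 normalised counts per kb of exon, beside 1410.3 for progenitor markers (10 tested), so both kinds of cell are in the samples.

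The table columns that carry library names hold no measurement of a library, as described under processing, so a value for each library cannot be shown. Genes with a single read in a single library showed instead that the deposited mean normalised count averages 9 libraries, whose size factors ran from 0.912 to 1.11, with a mean depth of 44271455 normalised counts. Below, a level is that mean, or the mean of a genotype implied by it and the 2 fold changes, which is an approximation without an error of its own. The error of each difference is the standard error (SE) of its log2 fold change. The labels do not say whether the embryos of a genotype came from separate litters. In bulk tissue, fewer cells of a type and less RNA per cell cannot be told apart.

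Fgf15 and Fgf3 are neighbours on chromosome 7 of mm10 (GENCODE M21), both on the plus strand. Fgf15 (ENSMUSG00000031073) lies at 144896531 to 144900953 and Fgf3 (ENSMUSG00000031074) at 144838083 to 144844436, with their starts 58448 bases apart. RefSeq (GRCm38.p6) holds promoter windows, 250 bases before to 50 after a gene start, for 8 of the 10 genes, and has none here for Fgf15 and Fgfr1. The Fgf3 window is shown because it is the promoter of the pair that is at hand, at chr7:144838362-144838661 on the plus strand, around RefSeq's own start of the gene:

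Fgf3: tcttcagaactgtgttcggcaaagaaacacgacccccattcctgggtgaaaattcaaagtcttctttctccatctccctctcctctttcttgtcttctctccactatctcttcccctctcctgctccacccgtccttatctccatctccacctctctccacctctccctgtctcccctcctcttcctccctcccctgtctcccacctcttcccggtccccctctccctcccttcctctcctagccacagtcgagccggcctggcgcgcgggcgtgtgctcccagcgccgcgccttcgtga

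A search of both strands for a GLI motif (GACCACCCA), an ETS motif (CCGGAAGT), a homeodomain motif (TAATTA), a core promoter box (TATAAA) and an SP motif (GGGCGG) found none of these letters in the Fgf3 window, which therefore has no capitals. The GLI letters occur in 0.253%, the ETS letters in 3.89%, the homeodomain letters in 5.29%, the core box letters in 13.6% and the SP letters in 35.7% of 32851 RefSeq promoter windows of the same length. The Fgf3 window is 59.3% G and C with 14 CpG sites, against medians of 52.7% and 7 over all windows. Among 12 windows of the 8 genes, the SP letters were in 7, belonging to Fgf2, Fgf10, Fgf13, Fgf18 and Fgfr3, and the core box letters in 1, of Fgf13.

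Fgf15, the mouse counterpart of human FGF19, is a secreted ligand that restrains proliferation and favours neuronal differentiation in the mouse cortex. Its implied mean was 67.0 normalised counts in deletion, 159.8 in knock-in and 374 in control libraries. Of these implied means the lowest was that of the deletion, and that of the knock-in lay between the others. Deletion and knock-in were not tested against each other, and what this order owes to the alleles of HAR1984 was not tested. The log2 fold change over control was -2.48 (SE 0.41) in the deletion, a level 5.58-fold lower with a 95% interval from 3.22 to 9.69. In the knock-in it was -1.23 (SE 0.40), 2.34-fold lower with an interval from 1.36 to 4.02. The 2 log2 fold changes differed by -1.25 (deletion minus knock-in), with an SE of 0.57 that counts the spread of the common controls in both terms.

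Fgf3 is a secreted ligand best known from the mouse inner ear, tail and ventral diencephalon, and it was the least abundant of the 10 genes. Its mean over all libraries was 28.2 normalised counts, and its implied mean was 11.6 in deletion, 17.5 in knock-in and 55.5 in control libraries. The order of genotypes was that of Fgf15. The log2 fold change was -2.26 (SE 0.61) in the deletion, 4.81-fold lower (2.11 to 10.9), and -1.66 (SE 0.59) in the knock-in, 3.17-fold lower (1.43 to 7.05). The difference between these 2 values, -0.60 (SE 0.84), was smaller than its SE. The longest exact run that the longest transcripts of Fgf15 and Fgf3 have in common is 11 bases. Among all 45 pairs of the 10 genes the median of that length is 12 bases and the longest is 58, between Fgf10 and Fgf13.

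A gene is called here when its p from the deposited Wald statistic, adjusted by Benjamini-Hochberg over all genes tested in a comparison, is under 0.05. In the deletion, 2 of the 10 genes were called lower, against 0.475% of 18952 genes tested, and 0 were called higher, against 0.501%. At an unadjusted p under 0.05 the deletion had 4 lower, Fgf15, Fgf3, Fgf9 and Fgf18, against 4.31% of all genes (9.5% in either direction). Adjusted over all 39255 genes of the deletion table, Fgf3 had an adjusted p of 0.0577 and was no longer called. In the same comparison 6 of 13 subpallium markers fell and 5 of 9 meningeal markers rose, and their part in these differences was not tested. In the knock-in 0 of the 10 were called by the Wald test, against 0.0471% called lower and 0.0895% called higher among 21222 genes tested. At an unadjusted p under 0.05 the knock-in had 2 lower, Fgf15 and Fgf3, against 3.39% of all genes (6.92% in either direction). Ranked by the Wald statistic, Fgf15 stood at place 9 and Fgf3 at place 68 from the lowest of 18952 genes in the deletion, and at places 69 and 109 of 21222 in the knock-in. Since these contrasts chose the genes, nothing is read from these counts and ranks.

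**Figure D1:**
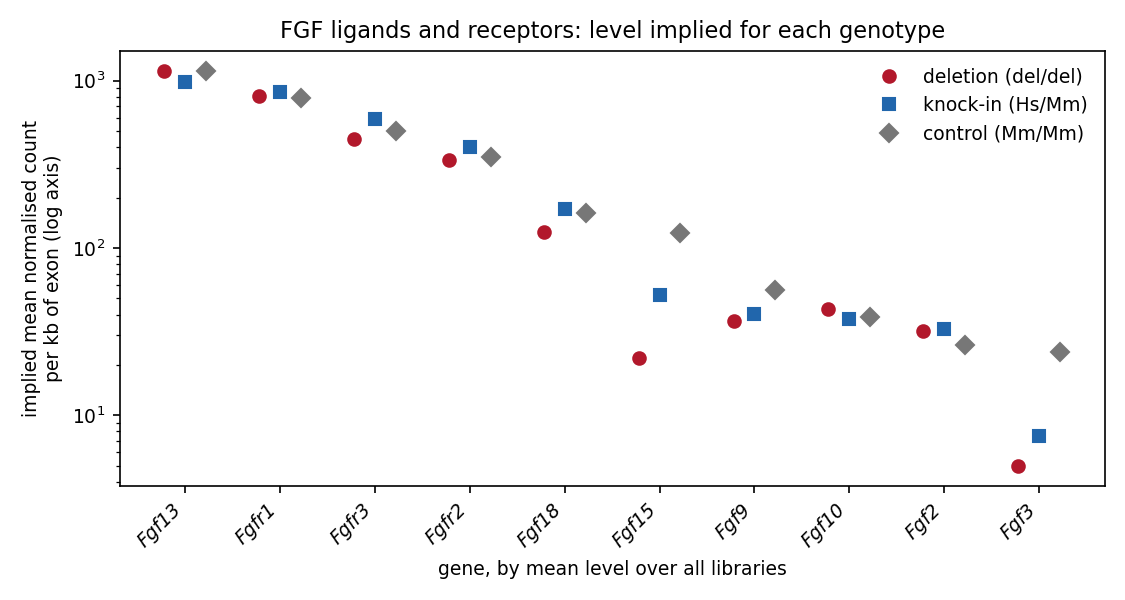
Implied mean normalised count per kb of exon (log axis) of each gene in deletion, knock-in and control libraries, with genes ordered by their mean over all libraries. Fgf15 stands at 21.9 in the deletion, 52.3 in the knock-in and 122 in control, while the 3 receptors and Fgf13 hold the highest levels with genotypes close together; no error is drawn because library values were not used.

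The other secreted ligands stayed nearer to control. Fgf9, a ligand made by neurons and glia, had implied means of 169 normalised counts in deletion, 187 in knock-in and 259.8 in control libraries. Its log2 fold change was -0.62 (SE 0.27) in the deletion and -0.47 (SE 0.27) in the knock-in. Both values were below control, though neither was past the threshold over all genes. Fgf18, a ligand of cortical plate neurons, had 148 in deletion, 204 in knock-in and 191 in control libraries. Fgf18 lay on opposite sides of control, at -0.37 (SE 0.16) in the deletion and 0.10 (SE 0.16) in the knock-in, neither past the threshold.

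Fgf2, a mitogen of cortical progenitors, was above control in both, at 0.28 (SE 0.21) in the deletion and 0.33 (SE 0.21) in the knock-in. Its implied means were 216 normalised counts in deletion, 222 in knock-in and 177 in control libraries. Fgf10, which in the mouse times the start of radial glia, was at 0.15 (SE 0.26) in the deletion and -0.04 (SE 0.26) in the knock-in, with implied means of 197 normalised counts in deletion, 173 in knock-in and 177 in control libraries. Neither gene was past the threshold, and the 95% intervals for Fgf2 reached from -0.13 to 0.70 in the deletion and from -0.09 to 0.74 in the knock-in.

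The receptors were close to control in both comparisons. Fgfr1, the main FGF receptor of cortical progenitors, had a mean of 8039.6 normalised counts, Fgfr2 of 3729 and Fgfr3, a receptor of radial glia, of 3677. The implied means of Fgfr1 were 7951 in deletion, 8402 in knock-in and 7765 in control libraries, and its log2 fold changes were 0.03 (SE 0.10) in the deletion and 0.11 (SE 0.10) in the knock-in. The 95% intervals of Fgfr1 ran from -0.16 to 0.23 in the deletion and from -0.08 to 0.31 in the knock-in, the narrowest of the set. Fgfr2 had implied means of 3449.9 in deletion, 4141 in knock-in and 3597 in control libraries, and was at -0.06 (SE 0.18) in the deletion and 0.20 (SE 0.18) in the knock-in. Fgfr3 had 3212 in deletion, 4239.6 in knock-in and 3579.7 in control libraries, and was at -0.16 (SE 0.24) in the deletion and 0.24 (SE 0.24) in the knock-in.

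Fgf13, the intracellular homologous factor that also binds microtubules in migrating neurons, had the highest level per length, 1091.4 normalised counts per kb of exon. It was followed by Fgfr1 (814 per kb), Fgfr3 (514), Fgfr2 (361), Fgf18 (152), Fgf15 (65.5), Fgf9 (44.2), Fgf10 (39.7), Fgf2 (30.2) and Fgf3 (12.1). The order of neighbours in this list was not tested, since a spread over libraries was not at hand. The implied means of Fgf13 were 4614 normalised counts in deletion, 3957 in knock-in and 4588 in control libraries. It differed from control by 0.01 (SE 0.17) in the deletion and -0.21 (SE 0.17) in the knock-in. Fgf13 is X-linked, and the labels do not state embryo sex. The Y-linked Eif2s3y had a log2 fold change of -27.20 (SE 3.91) in the knock-in, and of -1.26 (SE 3.73) for the deletion. Eif2s3y was thus nearly undetected in the knock-in libraries, while its implied mean was 859 in deletion and 2053 in control libraries. The mix of sexes therefore differed between knock-in and control. The X-linked Xist had log2 fold changes of 1.41 (SE 2.44) in the deletion and 1.46 (SE 2.44) in the knock-in. Its implied mean was 50016 in deletion, 51788 in knock-in and 18786 in control libraries. In the deletion too, Eif2s3y was below and Xist above control, with SEs too wide to tell whether the mix of sexes differed. The part of sex in the differences of either genotype, those of Fgf15 and Fgf3 included, was not tested.

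**Figure D2:**
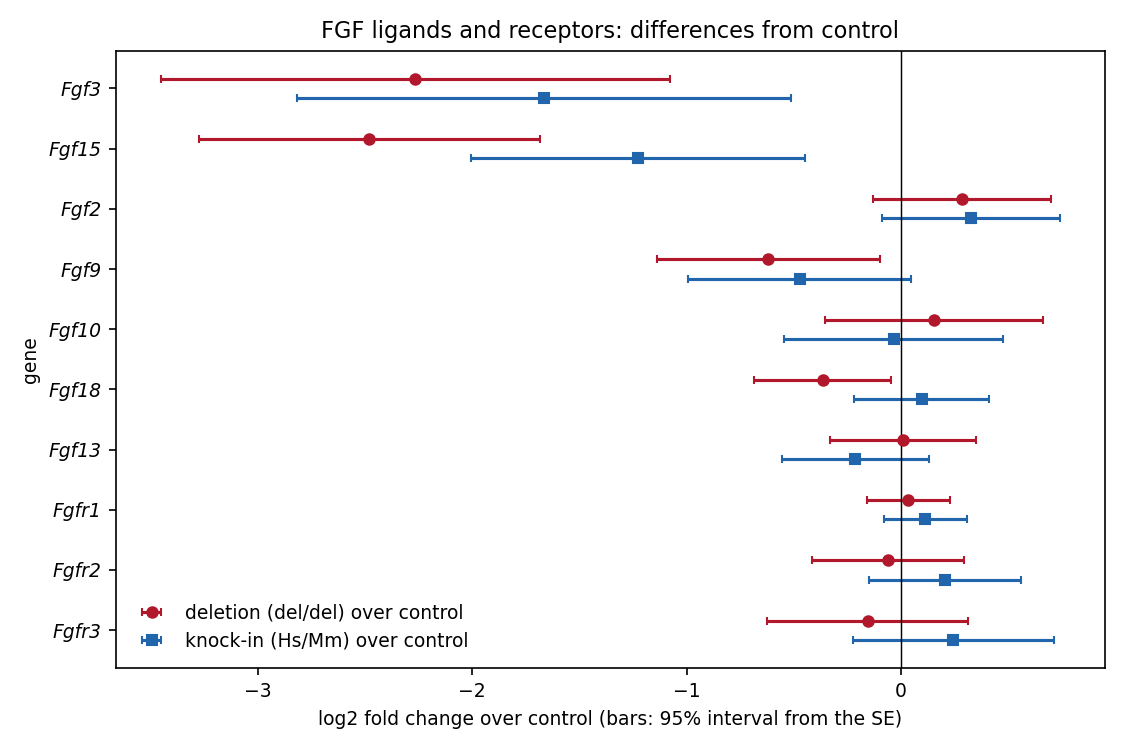
Log2 fold change of each gene over control in the deletion (circles) and the knock-in (squares), with 95% intervals from the SE. Fgf3 and Fgf15 lie below 0 with their whole intervals in both comparisons, and all other intervals except those of Fgf9 and Fgf18 in the deletion reach across 0.

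Across the 10 genes the median log2 fold change was -0.11 in the deletion, and that of the knock-in was 0.03, against medians of -0.01 and 0.00 over all genes tested. The number below control was 6 of 10 in the deletion, and 5 of 10 for the knock-in, where 51.7% and 49.0% of all genes tested were below control. These 2 comparisons use the same 3 control libraries.

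The surroundings of Fgf15 were examined next. Ano1, a calcium-activated chloride channel gene that starts 145 kb before Fgf15, fell by 1.48 on the log2 scale in the deletion (SE 0.24, adjusted p = 1.64e-06, Wald test with Benjamini-Hochberg adjustment over all genes tested). In the knock-in Ano1 was at -0.74 (SE 0.24, adjusted p = 0.264). Of 13 tested genes that start within 1 Mb of Fgf15, 3 were called in the deletion, where 0.976% of all genes tested were called. They were Ano1, Fgf3 and Fgf15, which lie together at one place within the window. The window was centred on Fgf15 because of its own difference, so this count is a description. Other genes of the window were nearer to control in the deletion. Shank2, Cttn, Ppfia1 and Fadd on the side of Ano1 had 0.09, 0.01, -0.04 and -0.02, and the cyclin D1 gene Ccnd1 and Tpcn2 on the other side had 0.06 and 0.20. Mrgprf, a receptor gene 404 kb after Fgf15, was at 0.92 (SE 0.30, adjusted p = 0.119).

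In the knock-in 0 of 14 tested genes in this window were called by the Wald test (background 0.137%), and 5 had an unadjusted p under 0.05, against 6.92% of all genes tested. These 5 were Fgf15, Fgf3, Ano1, the brain RNA gene Bc1 (-0.73, SE 0.22) and Gm26793 (-1.18, SE 0.46). Gm26793 is annotated as antisense to Fgf15 and overlaps it by 931 bases on the minus strand. No source used here says whether counting used strand, so reads of Fgf15 and Gm26793 cannot be told apart where they overlap. Gm26793 had a mean of 35.7 normalised counts against 200.3 for Fgf15, and was at -0.81 (SE 0.45) in the deletion.

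**Figure D3:**
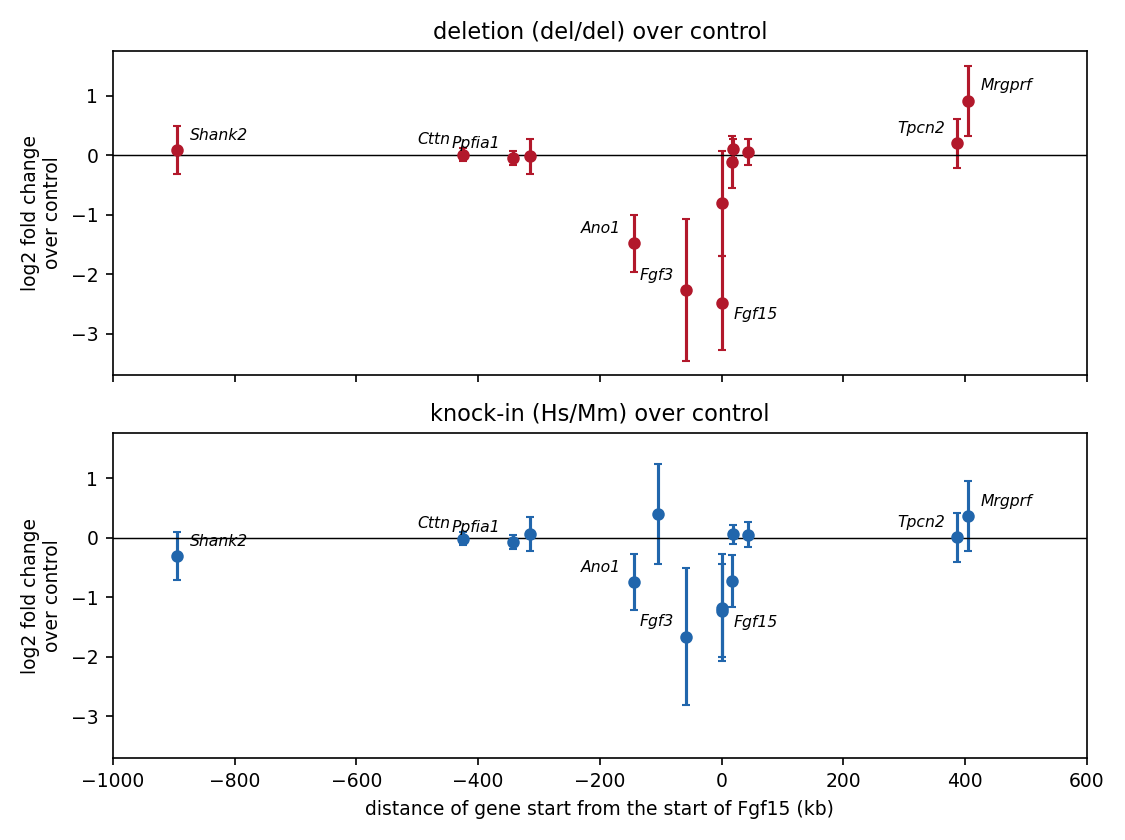
Log2 fold change over control, with 95% intervals, of tested genes that start within 1 Mb of Fgf15, against the distance of their start from that of Fgf15 in kb, for the deletion (top) and the knock-in (bottom). Ano1, Fgf3 and Fgf15 sit together below 0 in the deletion, and most other genes lie near 0, with Mrgprf at 0.92.

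The 5 genes nearest to Fgf15 over both log2 fold changes, among 156 named genes called in the deletion with a mean of at least 50 normalised counts, were Aldh1a3, Dlx6, Nkx2-3, Nrsn2 and Ntn1. Their distances on the log2 scale ran from 0.476 for Aldh1a3 to 0.908 for Ntn1. Aldh1a3, a retinoic acid-synthesising enzyme, had -2.70 (SE 0.43) in the deletion and -1.65 (SE 0.41) in the knock-in. The measure rests on only 2 comparisons with common controls, so many genes can lie close by it.

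The rest of the family was then counted. Of the 15 other Fgf genes, 6 were tested for the deletion and 9 for the knock-in. The list holds the homologous factors Fgf11, Fgf12 and Fgf14, tested in both comparisons, beside ligands. By the Wald test 0 were called in either comparison. Fgf12 alone had an unadjusted p under 0.05, and had it in each, against 9.5% and 6.92% of all genes tested. All 6 tested for the deletion and all 9 for the knock-in were below control, with medians, homologous factors included, of -0.20 and -0.35. Over all genes tested, 51.7% and 49.0% were below control. Both counts depend on the filter on low counts. Fgf1 (0.36, SE 0.44), Fgf5 (0.17, SE 0.40) and Fgf8 (0.09, SE 0.90) were above control in the deletion but tested only for the knock-in. Among genes tested in neither, Fgf6, Fgf21 and Fgf23 were above control in the deletion, and Fgf16 and Fgf20 below. In the knock-in Fgf20 (0.10, SE 4.08), Fgf21 (1.06, SE 4.08) and Fgf23 (0.23, SE 0.68) were above control, Fgf16 was below and Fgf6 was at 0. The lowest p was that of Fgf12, a homologous factor like Fgf13, at -0.47 (SE 0.14, adjusted p = 0.219) in the knock-in, and at -0.31 (SE 0.14, adjusted p = 0.433) for the deletion. Fgf7, a ligand of mesenchymal cells, had -0.37 (SE 0.38) in the deletion and -0.61 (SE 0.39) in the knock-in, and Fgf5 had -0.77 (SE 0.43) in the knock-in. Fgf8 and Fgf17, ligands of the rostral patterning centre, had means of 19.9 and 72.7 normalised counts and SEs of 0.90 to 0.97, so their differences are only loosely bounded, with a 95% interval for Fgf17 from -2.76 to 1.06 in the deletion. Fgf4, which lies between Fgf3 and Fgf15 and is one of the 15, was not found by name in either comparison, so it has no values here.

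Receptors and co-receptors outside the set gave 0 called of 3 tested in the deletion and of 4 in the knock-in. Over all genes tested, 0.976% and 0.137% were called. At an unadjusted p under 0.05 there were 0 as well, against 9.5% and 6.92% of all genes tested. With so few genes nothing is read from these counts. Fgfrl1, a receptor without a kinase domain, had -0.14 (SE 0.18) in the deletion and 0.30 (SE 0.18) in the knock-in. Fgfr4 had 0.21 (SE 0.23) in the deletion and 0.15 (SE 0.23) in the knock-in. The klotho co-receptor gene Kl had 0.26 (SE 0.57) in the deletion and 0.29 (SE 0.57) in the knock-in.

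Genes that carry or pass on the signal gave 0 calls. The share called among all genes tested was 0.976% for the deletion and 0.137% for the knock-in. At shares this low, short lists such as these can hold 0 calls by chance. The count of 0 therefore does not show that the pathway was unchanged. Over all genes tested, 9.5% in the deletion and 6.92% for the knock-in had an unadjusted p under 0.05, a share to set beside each such count in the lists that follow. Among 24 FGF-binding and heparan sulphate genes 0 were called in either comparison, with 3 for the deletion and 1 for the knock-in at an unadjusted p under 0.05. Fgfbp1, which releases FGFs from the matrix, had 0.94 (SE 0.34, adjusted p = 0.216) in the deletion and -0.21 (SE 0.35) in the knock-in, and the glypican gene Gpc6 had 0.39 (SE 0.16) in the deletion and 0.23 (SE 0.16) in the knock-in. The syndecan gene Sdc1 had 0.06 (SE 0.12) in the deletion and 0.24 (SE 0.12) in the knock-in. Among 22 intracellular signalling genes 0 were called in either, with 2 for the deletion and 1 for the knock-in at an unadjusted p under 0.05, and values lay between -0.14 and 0.34 in the deletion. Ptpn11, the phosphatase SHP2, had 0.08 (SE 0.07) in the deletion and 0.16 (SE 0.06) in the knock-in. The adaptor genes Gab2 and Shc1 had 0.21 (SE 0.10) and 0.34 (SE 0.18) in the deletion.

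Among 13 feedback genes and ETV factors, which ERK signalling switches on, 0 were called in either comparison and 3 in each had an unadjusted p under 0.05. Dusp6, an ERK phosphatase, had 0.22 (SE 0.10) in the deletion and 0.26 (SE 0.10) in the knock-in, and was above control in both. Dusp5, another ERK phosphatase, had -0.40 (SE 0.22) in the deletion and -0.71 (SE 0.22, adjusted p = 0.244) in the knock-in, and was below control in both. Il17rd, an inhibitor of FGF signalling, had -0.45 (SE 0.19) in the deletion and 0.01 (SE 0.19) in the knock-in. Etv1 was below control at -0.30 (SE 0.14) in the deletion and -0.27 (SE 0.14) in the knock-in, with an unadjusted p under 0.05 in each. Etv4 was above control in both, at 0.22 (SE 0.21) in the deletion and 0.11 (SE 0.21) in the knock-in. Etv5, an ETS transcription factor, was at -0.05 (SE 0.16) in the deletion and 0.16 (SE 0.16) in the knock-in by statistic times SE. The authors' deposited table gives Etv5 a log2 fold change of -1.47 (adjusted p = 0.0398) in the deletion and 1.36 (adjusted p = 1.75e-05) in the knock-in, and has it on both shorter lists, so its call depends on which deposited columns are used.

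Markers of tissue next to the dorsal cortex moved in the same comparison as Fgf15 and Fgf3. Of 13 subpallium markers, 6 fell in the deletion, against 0.475% of all genes tested, and all 13 were below control in both by statistic times SE. The authors' deposited table has Dlx1 at 1.55 and Dlx2 at 0.47 in the knock-in, where that product gives -0.55 for Dlx1 and -0.47 for Dlx2, so the direction of these 2 genes turns with the column used. Their summed implied level was 12400 normalised counts in deletion, 13948 in knock-in and 20408 in control libraries. Dlx5 (-1.06, SE 0.25), Dlx2 (-0.77, SE 0.18) and Dlx1 (-0.75, SE 0.20) had the smallest p in the deletion, where the authors' deposited table gives log2 fold changes of -1.58 for Dlx5 and -1.77 for Dlx2. Of 7 tested markers of the rostral patterning centre and septum, 3 fell in the deletion (background 0.475%), Sp8 (-0.81, SE 0.17) and Zic1 (-0.77, SE 0.19) among them. Fgf17 was one of the 7, while Fgf8, also on the list, was not tested for the deletion. The authors' deposited table gives log2 fold changes of -1.81 for Sp8 and -1.77 for Zic1, lower by 1 than the product of statistic and SE. The 7 tested markers summed to 10643 in deletion, 15102 in knock-in and 18445 in control libraries. Most of each sum was Zic1, with implied means of 6726 in deletion, 9478 in knock-in and 11475 in control libraries.

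Diencephalic and hypothalamic markers had 5 tested members and 0 called in either comparison, with 2 and 0 at an unadjusted p under 0.05 in the deletion and the knock-in. Gbx2 was at -4.43 (SE 1.29, adjusted p = 0.0564) in the deletion, and the authors' deposited table gives it an adjusted p of 0.0498 and has it on the shorter list, so the count of 0 for the deletion turns on the adjustment. Meningeal markers moved the other way: 5 of 9 rose in the deletion, against 0.501% of all genes tested, Aldh1a2 (1.13, SE 0.22), Foxd1 (1.20, SE 0.29) and Col1a2 (1.01, SE 0.26) among them, with summed levels of 50575 in deletion, 41237 in knock-in and 26842 in control libraries. Of 9 endothelial and pericyte markers 3 rose in the deletion (background 0.501%), Vwf, Flt1 and Vtn, with summed levels of 24001 in deletion, 20519 in knock-in and 16656 in control libraries.

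Among 10 progenitor markers 0 were called in either comparison, with 1 at an unadjusted p under 0.05 in each, and all 10 were above control in the knock-in. The authors' deposited table gives Emx1 a log2 fold change of 1.41 (adjusted p = 0.000473) in the knock-in. Statistic times SE gives 0.41 (SE 0.16) for Emx1, so the count of 0 for the knock-in turns on the column used. Emx1 and Emx2 are on the authors' shorter list for the knock-in. Among 7 projection neuron markers 0 were called in either comparison, with 2 and 0 at an unadjusted p under 0.05 in the deletion and the knock-in. Among 6 choroid plexus and 8 glial lineage markers 0 were called in either comparison, and the choroid plexus SEs were 0.93 or more. At an unadjusted p under 0.05 these were 0 choroid plexus markers in both comparisons, and 3 glial markers for the deletion and 1 for the knock-in.

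The authors' deposited tables present the pair as changed in both genotypes. In the authors' shorter lists (given as adjusted p under 0.05 and a log2 fold change beyond 1.3), 59 genes stand for the deletion and 65 for the knock-in, with 15 in both. The deposited values of the full knock-in table do not follow that rule for every gene. Emx2 is listed though it has 0.20 (deposited adjusted p = 0.828) there, and Dlx1 is not listed though it has 1.55 (deposited adjusted p = 0.000382). Fgf3 is on both lists, while Fgf15 is on that of the deletion alone, its -1.23 in the knock-in being short of 1.3. The log2 fold changes of the 10 genes in the authors' deposited tables equal the statistic times its SE. Of the 10, Fgf3 and Fgf15 have knock-in p-values that differ from those of their statistic. For Fgf3 the authors' deposited table gives a raw p of 4.67e-06 in the knock-in, where the statistic of -2.83 in the same row gives 0.00467. For Fgf15 the authors' deposited table gives 2.05e-06 where the statistic gives 0.00205, and for Fgf12 a deposited 1.05e-06 stands against 0.00105.

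Each of these deposited values is smaller by a factor of 1000. The same held for 923 of 40357 knock-in p-values and for 0 in the deletion. The largest knock-in p so divided was 0.0268, and the smallest left as its statistic gives it was 0.0269. With the deposited adjusted p, 930 genes (4.38%) would be called in the knock-in, 2.02% of all genes as lower, with Fgf3 (0.000356) and Fgf15 (0.000255) among them. With p from the statistic, 29 were called (0.137%) and the adjusted p is 0.372 for Fgf3 and 0.268 for Fgf15. The knock-in differences of Fgf3 and Fgf15 thus have an adjusted p under 0.05 only with the smaller p-values. For Fgf3 and Fgf15 the deposited log2 fold change, SE and statistic fit one another, and the deposited p does not follow from them. How the smaller p-values arose cannot be told from the tables alone.

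**Figure D4:**
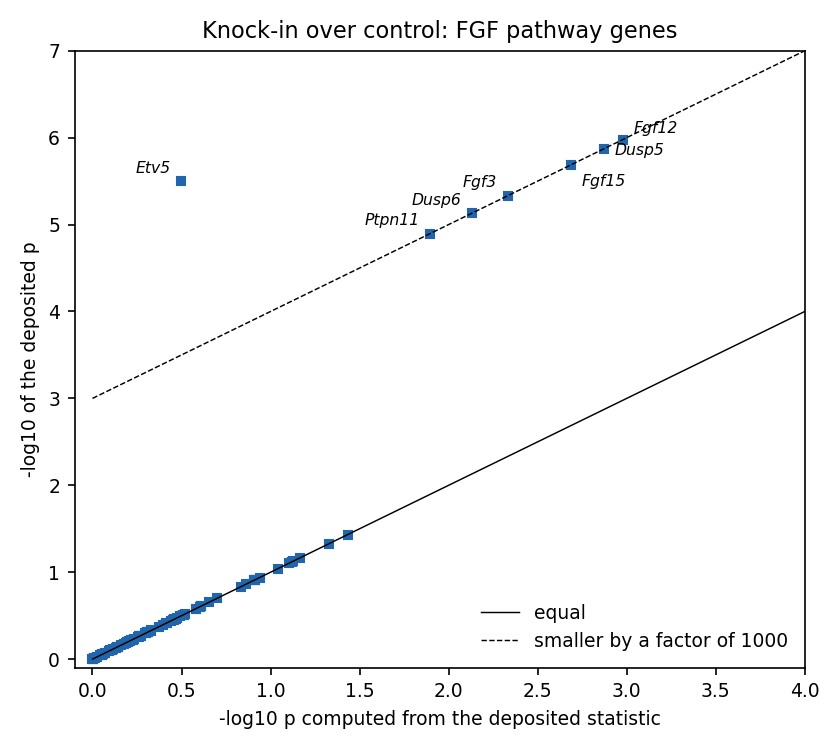
Minus log10 of the deposited p in the knock-in against minus log10 of the p computed from the deposited statistic, for genes of the FGF lists, with a solid line for equality and a dashed line for p-values smaller by a factor of 1000. Fgf3, Fgf15, Fgf12, Dusp5, Dusp6 and Ptpn11 lie on the dashed line, Etv5 lies off both lines, and the other genes lie on the solid line.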

How the data were processed

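Only the authors' deposited comparison tables were used. Per the submitters' processing notes, STAR 2.7.9a, Bowtie2 2.4.4 and cutadapt were used and 2 builds (mm10, mm9) named, with no roles. The sources used here do not name the counting tool or its annotation. Per the file headers, the authors made log2 fold changes with standard errors on the log2 scale, a Wald statistic (a score) and raw and adjusted p-values with DESeq2. The deposited baseMean, a signal, is the mean normalised count over all samples. It was equal in both tables for 39184 of 39184 genes in common.

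The deposited columns headed FPKM were not used, because 235530 of 235530 values in the deletion table and 242196 of 242196 in the knock-in table equalled baseMean multiplied by consecutive random numbers from a normal distribution in R (mean 1, SD 0.1, seed 42) within 1e-09. They come to 12 columns in the 2 full tables.

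The log2 fold change was the statistic times its SE, p was 2-sided from the normal distribution, and Benjamini-Hochberg adjustment ran over the genes with a deposited adjusted p, with a threshold of 0.05. Deposited log2 fold changes differed from this product for 22 deletion and 25 knock-in genes, and deposited p-values for 4 and 930. Levels per genotype solve the mean over 3 equal groups with both fold changes, and levels per kb use merged exons of GENCODE M21. Size factors are the inverse of 9 times the mean of genes with 1 read in 1 library, 3029 genes in all. Promoters came from RefSeq.

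The genes, the 16 lists and the tests were chosen with earlier results of these data known. Named genes were the 10 genes, list members past the threshold or else the 3 with the smallest p, and up to 3 markers a list. The 5 genes most like Fgf15 and called genes within 1 Mb of it were named too. Others in that window were chosen after their values were seen, as were Eif2s3y, Xist, Etv1 and Etv4. Of the lists, 1 and some genes chosen by this rule are not reported here. The calling step was tested on simulated data. Alternatives were other thresholds, adjustment sets, level and fold filters, the deposited values, centring and a wider window. Software was scipy 1.17.1, pandas 2.3.3 and numpy 2.4.6 under Python 3.11.15, with plots by matplotlib 3.10.9.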

Additional observations from a re-analysis of the deposited data

How the results depend on the processing

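All 20 log2 fold changes of the 10 genes stayed within their SE when the authors' deposited log2 fold change was taken or the median of all genes was subtracted. Neither change could have given another outcome, so nothing about robustness is read from it. For the 10 genes the deposited log2 fold change equals the statistic times its SE. The medians subtracted were -0.01 for the deletion and 0.00 for the knock-in, while the smallest SE was 0.098, that of Fgfr1. The number of genes called in the deletion was 185, and it was 308 at an adjusted p of 0.1, 75 at 0.01 and 115 when adjusted over every gene with a p. In the knock-in it was 29, and it was 58 at 0.1, 16 at 0.01 and 930 with the authors' deposited adjusted p. Among the FGF lists the knock-in had 0 calls and 8 with the authors' deposited adjusted p, Fgf3, Fgf15 and Fgf12 among them. The call of Fgf3 in the deletion was lost when adjusted over all 39255 genes (adjusted p = 0.0577), a larger set of tests, and a filter at a mean of 50 normalised counts removed the gene. Fgf15 was called in the deletion under both (3.40e-06 and 1.46e-06). Within 2 Mb of Fgf15 the count of called genes was again 3 for the deletion and 0 for the knock-in. The low level of Fgf3 limits its precision.

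No paired analysis was possible because the tables hold comparisons and no library values, and for the same reason leaving out each replicate was not run.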
